A study of Mus musculus with 2 samples.

Results

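Mir140 and Mir455 are miRNA genes best known from cartilage, and both were present in the embryonic mouse heart. The rule took every row of the count tables whose Ensembl identifier belongs to either gene, without using any measured value. It found 1 row for each, so 2 of the 1973 listed miRNA genes. Small RNA (microRNA-seq, labelled with a size range under 30 and no unit) had been sequenced from total RNA of whole hearts of healthy B6NCrl mouse embryos at embryonic day 16.5. Males and females were pooled. The design has a single group with 2 libraries, labelled biological replicates 1 and 2, and the hearts were pooled separately for each. The pool of replicate 2 held 41 embryos, and the number for replicate 1 was not given in the sources used here. No treatment, mutant or other age was part of the series, so the questions were how abundant the 2 miRNAs were and how far their levels differed between pools.

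miRNAs are short RNAs cut from a hairpin precursor, and they lower the output of mRNAs that pair with their seed, bases 2 to 8 of the mature strand. Chondrocytes are the classical site of both genes: miR-140 and its host gene Wwp2, which encodes a ubiquitin ligase, are activated there by the transcription factor SOX9, and mice without miR-140 have skeletal growth defects. Mir455 lies in Col27a1, which encodes a fibrillar collagen made by cartilage. The heart is not a cartilaginous organ, but the mesenchyme of its developing valves also uses SOX9 and cartilage-type matrix genes.

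Mature strands of the 2 genes from RefSeq (GRCm38.p6) are shown first, because the seed decides which mRNAs each can pair with. Capitals mark the seed, and each strand is written 5′ to 3′.
miR-140-3p: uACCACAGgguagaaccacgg
miR-455-5p: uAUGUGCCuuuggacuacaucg
miR-455-3p: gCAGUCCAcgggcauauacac
The 3 seeds differ from one another. miR-140-5p is not used here, so the seed comparison covers these 3 strands. Each count is for a whole gene, so reads of the 5p and 3p strands of a hairpin were added together, and what part of the Mir140 level belongs to miR-140-3p was not measured. In the RefSeq table of 1738 mature strands, 1 other strand carried the seed of miR-140-3p and 1 other that of miR-455-5p. No other strand carried the seed of miR-455-3p. The strands that share a seed are given for comparison.
miR-497b: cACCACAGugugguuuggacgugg
miR-5129-3p: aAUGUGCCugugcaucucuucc
Both were nearly absent from the heart libraries. Mir497b had 1 count in replicate 1 and 0 in replicate 2, where a count of 0 allows up to 0.514 CPM (counts per 1000000 sense counts at miRNA genes). Mir5129 had 3 counts in replicate 1 and 1 in replicate 2. Both thus lay far below the gene counts of Mir140 and Mir455.

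The sequences used for both genes were distinct from other miRNAs. No sequence of 20 bases from the RefSeq entries of Mir140 or Mir455 occurred in the entry of another miRNA gene. For Mir455 only the mature strands and no hairpin were used, so the rest of its gene was not searched. Among 141767 annotated transcripts, both strands of Mir455 occurred in the Mir455 transcript alone, and miR-140-3p occurred in Mir140 and in 1 transcript of its host. Reads matching several places in the genome were counted in no gene, at 29.5% and 31.9% of all reads. For these strands no second annotated source was found, though unannotated parts of the genome were not searched. The 70-base Mir140 hairpin folded with 60 paired bases and a predicted energy of -39.1 kcal/mol, and 20 of the 21 bases of miR-140-3p were paired. The 2 strands of Mir455 are separated by 15 bases in the gene, and as a duplex they had 32 paired bases of 43 and a predicted energy of -22.3 kcal/mol.

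Both genes lay on the plus strand inside an intron of a long host gene on the same strand, with no annotated gene across them on the other strand. Mir140 (ENSMUSG00000065439.1) occupies chromosome 8, 107551244 to 107551313 in mm10. It lies 115 kb from the start of Wwp2 (107436365 to 107558595), 94.0% of the way along. It lay in an intron of 3 protein-coding transcripts of Wwp2. That intron is 2141 bases long, with the upstream exon 1108 bases away and the downstream exon 963 bases away. It is intron 16 of the longest, Wwp2-201, and intron 7 of Wwp2-205. Wwp2-205 starts 6.23 kb before the hairpin. A further transcript, the retained-intron form Wwp2-206, held the hairpin within its 1 exon. Another retained-intron form, Wwp2-210, starts 23 bases after the hairpin ends. Mir140 therefore sits near the 3′ end of its host and a short way after the start of 2 annotated host forms.

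Mir455 (ENSMUSG00000070102.1) occupies chromosome 4, 63256851 to 63256932 in mm10, a gene of 82 bases. It lies 42.8 kb from the start of Col27a1 (63214004 to 63334991), 35.4% of the way along. It is in intron 10 of the protein-coding Col27a1-201, which has 61 exons. The intron is 2318 bases long, and the hairpin lies near its end, 127 bases before the next exon. Of 7 annotated Col27a1 transcripts, 4 carried Mir455 in an intron, 0 in an exon, and 3 start after it. Both genes stood alone: the nearest detected miRNA gene was Mir328 for Mir140, 2243 kb away, and Mir32 for Mir455, 6362 kb away. A residence inside a host was common, as 66.8% of the 365 detected genes (10 or more sense counts in each library) lay within another gene of their strand.

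**Figure D1:**
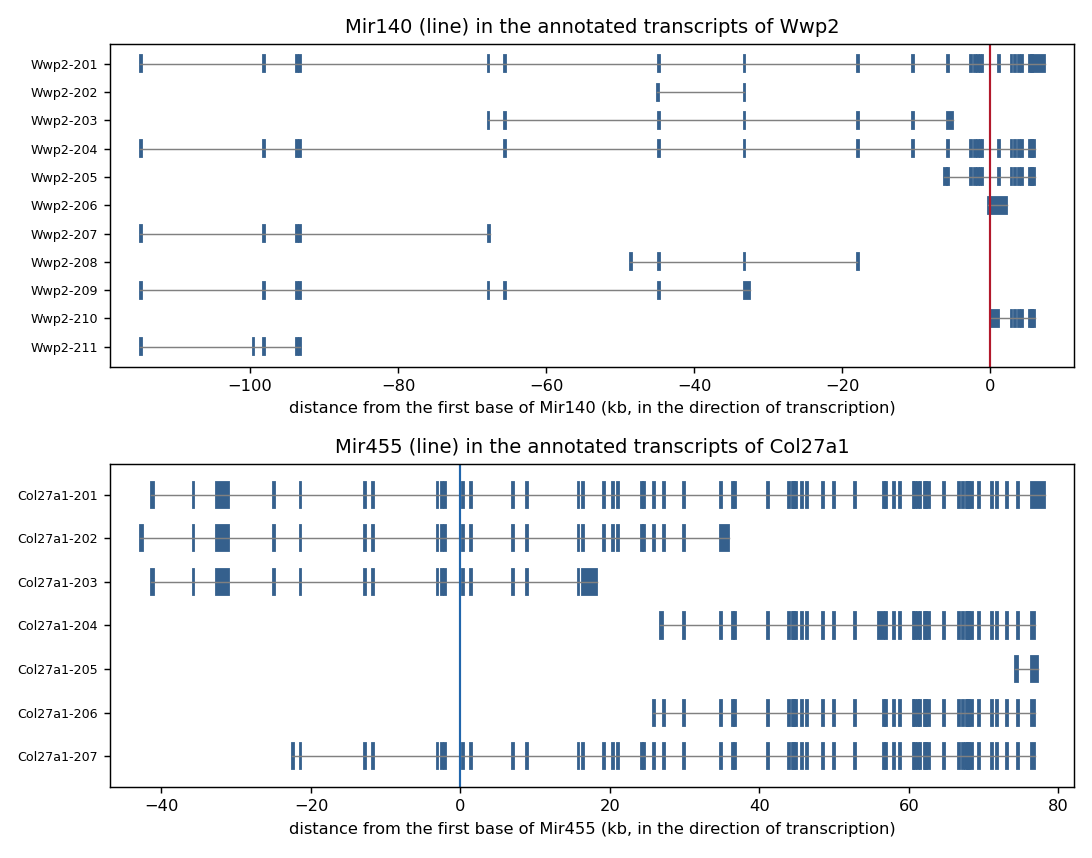
Annotated transcripts of Wwp2 (top) and Col27a1 (bottom), with exons as boxes on a line per transcript and the x axis giving the distance in kb from the first base of the miRNA gene; exons under 0.25 kb are drawn at that width. The vertical line marks the miRNA, which sits towards the 3′ end of Wwp2, inside the single exon of Wwp2-206, and in the first part of Col27a1.

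By counts of uniquely placed reads, Mir140 was among the more abundant miRNA genes of the heart libraries. It had 17009 sense counts in replicate 1 and 21716 in replicate 2. As a relative level this was 2627 CPM in replicate 1 (Wilson 95% interval 2588 to 2667) and 3717 CPM in replicate 2 (3668 to 3767), with a mean of 3172 ± 771 CPM (SD, n = 2). The higher library was replicate 2, and the intervals did not overlap; they cover counting error only, since PCR copies are not independent molecules. Mature strands are of nearly equal length, so levels of different miRNAs are set side by side without scaling by length. By mean level Mir140 stood at rank 37 of 365 detected genes, above 89.9% of them and well above their median of 108 CPM. Reads matching several places, 29.5% and 31.9% of all reads, were counted in no gene. A gene that shares its mature strand with a copy would thus rank too low here, and ranks of the miRNAs themselves were not measured. Its rank was 45 in replicate 1 and 34 in replicate 2.

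Mir455 was detected at a lower level. It had 3419 sense counts in replicate 1 and 2571 in replicate 2. This was 528 CPM in replicate 1 (Wilson 95% interval 511 to 546) and 440.1 CPM in replicate 2 (423 to 457), with a mean of 484 ± 62.2 CPM (SD, n = 2). Here the higher library was replicate 1, again with intervals that did not overlap. Mir455 stood at rank 105 of 365, above 71.2% of detected genes, at rank 103 in replicate 1 and 111 in replicate 2. These ranks, too, rest on uniquely placed reads only. Neither gene had a single count on the opposite strand in either library. That was usual, as 91.2% of detected genes had none. Together the 2 genes held 0.316% of sense counts in replicate 1 and 0.416% in replicate 2.

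Genes of like level were named by their mean CPM, 3 above and 3 below each member. Around Mir140 these were Mir744 (3527 ± 470 CPM), Mir106b (3188 ± 111 CPM) and Mir423 (3187 ± 352 CPM) above, and Mir532 (3046 ± 247 CPM), Mir107 (3012 ± 303 CPM) and Mir130b (2977 ± 301 CPM) below. Around Mir455 they were Mir203 (543 ± 56.4 CPM), Mir195a (502 ± 58.4 CPM), Mir183 (485 ± 50.8 CPM), Mir1193 (483 ± 52.3 CPM), Mir125b-2 (481 ± 17.3 CPM) and Mir433 (470 ± 80.2 CPM). The range over the 2 libraries of each of these neighbours overlapped that of the member beside it. Compared within each library, Mir203 (583 and 503 CPM) and Mir195a (543 and 460 CPM) stood above Mir455 both times. Mir433 (527 and 414 CPM) stood below it both times, though only just in replicate 1. The other neighbours, among them all of those around Mir140, changed sides of the member between the libraries. In all, 12 other detected genes overlapped the range of Mir140 and 12 that of Mir455. The ranges of Mir140 and Mir455 were far apart from each other.

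**Figure D2:**
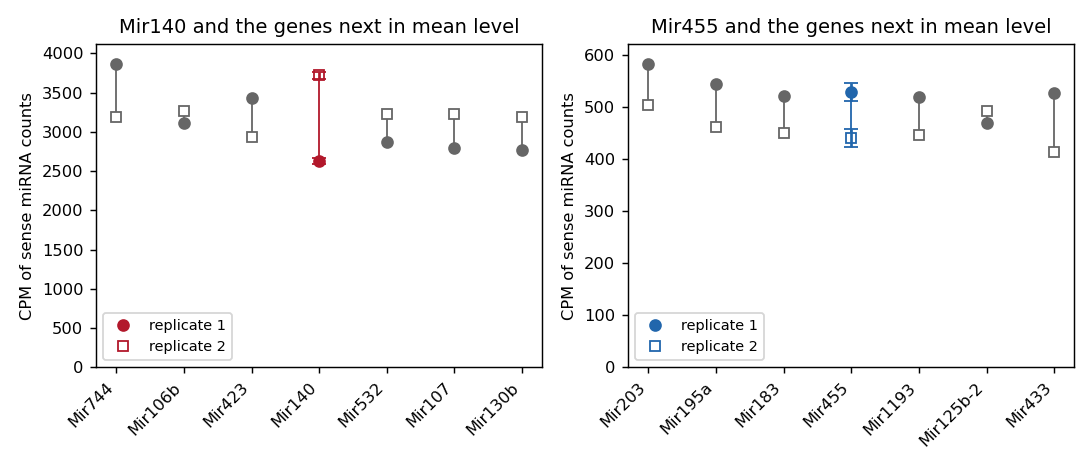
Level in CPM (y axis, from 0) of Mir140 (left) and Mir455 (right) with the 3 detected genes next above and below in mean level; filled circles are replicate 1, open squares replicate 2, and bars on the member are Wilson 95% intervals. Mir140 has the widest gap between its 2 libraries in its panel, 2627 to 3717 CPM, while Mir455 lies between 440.1 and 528 CPM beside neighbours of overlapping range, of which Mir125b-2 has the smallest gap, 468 to 493 CPM.

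The 2 cartilage miRNAs differed between the pools in opposite directions. Mir140 was 1.44-fold higher in replicate 2, a log2 ratio of 0.53 with an exact 95% interval of 0.50 to 0.56. Mir455 was 1.18-fold lower in replicate 2, a log2 ratio of -0.24 with an interval of -0.31 to -0.16. In an exact binomial test of the counts (two-sided), with Benjamini-Hochberg adjustment over the 365 detected genes, the adjusted p was 8.12e-279 for Mir140 and 1.26e-09 for Mir455. This test compares the 2 libraries on counting error alone; with 1 library on each side it says nothing of conditions, and the spread between pools of one kind is not in it. Neither gene reached the 2-fold difference also needed for a call, which 3.29% of detected genes did (1.64% higher and 1.64% lower in replicate 2). On p alone, with no minimum fold, the share was 46.3%, made up of 26.0% on the side of Mir140 and 20.3% on that of Mir455. Passing on p alone was therefore common.

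Set beside other detected genes, the difference of Mir140 ranked high and that of Mir455 near the middle, which is a description and not a test. The absolute log2 ratio of Mir140 was larger than that of 81.4% of all detected genes and of 90.9% of the 187 genes with at least 100 CPM. For Mir455 these shares were 54.5% and 69.0%. The median absolute log2 ratio was 0.21 over all detected genes and 0.14 over the 187. Among the 82 genes with a mean of at least 1000 CPM, a limit chosen after the values were seen, Mir140 had the highest log2 ratio of all, followed by Mir335 at 0.42. In that group 2 genes had a larger absolute ratio, both lower in replicate 2: Mir10a at -0.82 and Mir449a at -0.89.

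**Figure D3:**
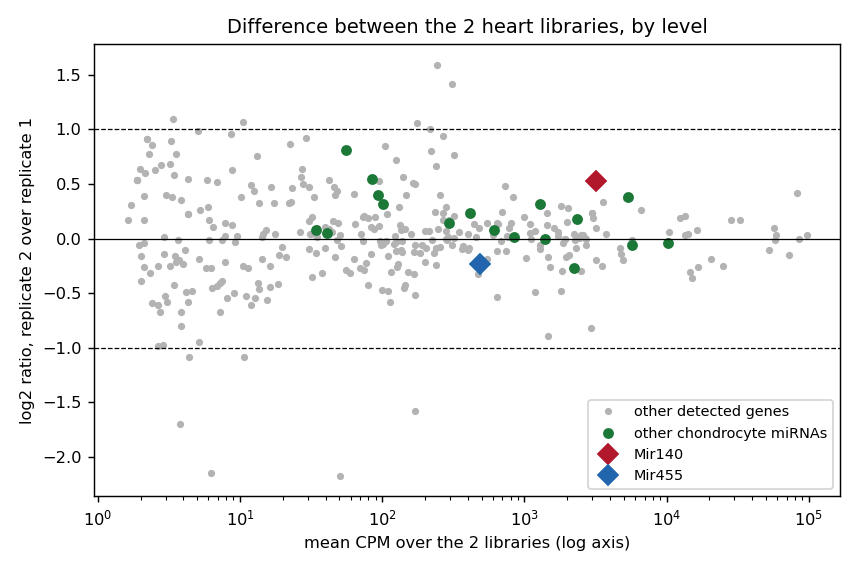
Log2 ratio of replicate 2 over replicate 1 (y axis) against mean CPM (x axis, log scale) for the 365 detected genes, with dashed lines at a 2-fold difference. Mir140 (red diamond, 0.53) lies above every other gene with a mean of at least 1000 CPM, and Mir455 (blue diamond, -0.24) lies within the cloud of genes at its level.

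The ratio of the 2 genes within a library does not depend on how libraries are scaled. Mir140 had 4.97 counts per Mir455 count in replicate 1 (exact 95% interval 4.80 to 5.16) and 8.45 in replicate 2 (8.11 to 8.80). The mean log2 ratio was 2.70 ± 0.54 (SD, n = 2). The ratio was thus 1.70-fold larger in replicate 2, and a two-sided Fisher's exact test of the 4 counts gave p = 2.35e-80 for the difference between these libraries, again on counting error alone. Mir140 exceeded Mir455 in both libraries by more than the spread between them. These ratios compare read counts, and whether the 2 miRNAs were captured with equal efficiency was not tested.

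Of the 3 miRNAs on the heart muscle list, Mir208b stood far above both genes, while Mir499 was below Mir140 in both libraries. The 3 heart muscle miRNAs, Mir208a, Mir208b and Mir499 in the introns of myosin genes, were all detected, and the labelled tissue carried its markers. Their summed level was 67703 CPM in replicate 1 against 67120 CPM in replicate 2. Most of it was Mir208b, at 59090 and 57432 CPM. Mir208a stood at 6028 and 7084 CPM, and Mir499 at 2584 and 2604 CPM. The list left out Mir1a-1 (2.94 and 1.88 CPM) and Mir133a-1 (2.94 and 2.40 CPM). Each is a numbered copy, and reads without a unique site in the genome were not counted. Whether their copies share mature strands was not tested, so these low counts do not show that the miRNAs were scarce. Mir208b, the miRNA of the beta myosin heavy chain gene Myh7, had 22.5 counts per Mir140 count in replicate 1 and 15.4 in replicate 2. Against Mir455 it had 112 and 130 counts per count. Mir143 of smooth muscle exceeded Mir140 36.6-fold and 26.0-fold, and Mir126a of endothelium exceeded it 32.7-fold and 22.7-fold. Mir145a, also on the smooth muscle list, was below Mir140 in both libraries, at 1160 and 1417 CPM. Mir208b, Mir143 and Mir126a themselves had log2 ratios of replicate 2 over replicate 1 between -0.02 and 0.03. The other genes of the heart and smooth muscle lists were not all so even. Mir208a had a ratio of 0.26 and Mir145a of 0.31, while Mir499 had 0.04.

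Other cell types were also represented. Mesenchymal miRNAs (Mir199a-1, Mir199a-2, Mir199b and Mir214, 3 of 4 detected) summed to 2882 CPM in replicate 1 and 2495 CPM in replicate 2. Among them Mir214, which is made from the Dnm3os transcript of embryonic mesenchyme, stood at 2457 and 2008 CPM. The other members of that list were not lower in replicate 2: Mir199b stood at 384 and 443 CPM, Mir199a-2 at 40.3 and 41.1 CPM and Mir199a-1 at 0.93 and 2.91 CPM. Mir140 was 1.07-fold above Mir214 in replicate 1 and 1.85-fold above it in replicate 2. The ratio of Mir214 to Mir455 hardly differed between the libraries, at 4.65 (exact 95% interval 4.48 to 4.83) and 4.56 (4.37 to 4.76). This follows from their like log2 ratios of replicate 2 over replicate 1, -0.27 and -0.24, and holds for Mir214 only. Mir199b (0.23) and Mir199a-2 (0.05) differed the other way. Skeletal muscle Mir206 stood at 115 and 234 CPM, and the epithelial Mir200c and Mir429 summed to 3531 and 2484 CPM. Erythroid Mir451a and Mir144 summed to 2037 and 1719 CPM, myeloid Mir223 stood at 399 and 405 CPM, and liver Mir122 at 160 and 161 CPM. Within the erythroid pair, the log2 ratio of replicate 2 over replicate 1 was -0.26 for Mir451a and -0.06 for Mir144. Of 5 listed neural genes 0 were detected, with Mir124a-3 and Mir9-2 at 0 in both libraries. Mir9-3 had 16 counts in replicate 1 and 1 in replicate 2. These neural genes are numbered copies, and reads without a unique site in the genome were left out of the counts. Whether the copies share mature strands was not tested, so the low counts do not show that neural miRNAs were absent. Mir206, Mir208a, Mir145a and, of the mesenchymal list, Mir199b were thus higher in replicate 2, as Mir140 was. The epithelial sum, erythroid Mir451a and, of the mesenchymal list, Mir214 were lower there, as Mir455 was. With 2 libraries any gene that differs must fall on 1 of these sides, so a shared side links no gene to a member. On adjusted p alone, 26.0% of all detected genes were higher and 20.3% lower in replicate 2. The part of these genes in the differences was not tested. In whole hearts, fewer cells of a type and less RNA per cell cannot be told apart.

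Most of the other miRNAs studied in chondrocytes that were on the list were detected in the heart libraries. Of 20 such genes, 17 were detected, beside 365 of all 1973 listed miRNA genes. Their median was 611 CPM, against 108 CPM for all detected genes, and the list was not matched with other genes for level. The list was drawn up with earlier results of these data known, so these figures are a description and not a test. It is not specific to chondrocytes either. Mir145a is also on the smooth muscle list, and Mir199a-1, Mir199a-2, Mir199b and Mir214 are on the mesenchymal list. The highest were Mir22 (10300 ± 321 CPM), Mir98 of the let-7 family (5684 ± 247 CPM), Mir93 in the replication gene Mcm7 (5351 ± 919 CPM), Mir483 in the growth factor gene Igf2 (2358 ± 175 CPM), Mir214 (2232 ± 318 CPM) and Mir27b (1388 ± 21.0 CPM). By mean level 3 of the 17 exceeded Mir140 and 9 exceeded Mir455. Mir365-1, Mir365-2 and Mir199a-1 were not detected, with 1 to 17 counts per library. Each of them is a numbered copy, and reads lacking a unique genomic site did not enter the counts. Whether the copies share mature strands was not tested, so these low counts do not show that the miRNAs were scarce.

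None of the 17 reached a 2-fold difference with an adjusted p under 0.05 in the exact binomial test, against 3.29% of all detected genes, and the count was also 0 with DESeq2 size factors. At an unadjusted p under 0.05 13 of the 17 passed, against 190 of all 365 detected genes (52.1%). The list was not matched with these genes for level, and its median level was higher. On adjusted p alone 10 were higher and 3 lower in replicate 2, and 4 did not pass, beside 26.0% higher and 20.3% lower over all detected genes. Their median log2 ratio was 0.14, against 0.02 for all detected genes. Mir193b (0.81) and Mir221 (0.54) had a larger ratio than Mir140, and Mir214 (-0.27) a lower one than Mir455. Mir675, cut from the imprinted H19 RNA, had a ratio of 0.32 at 91.6 and 112 CPM. The list thus ranged to both sides of 0, as the members did.

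**Figure D4:**
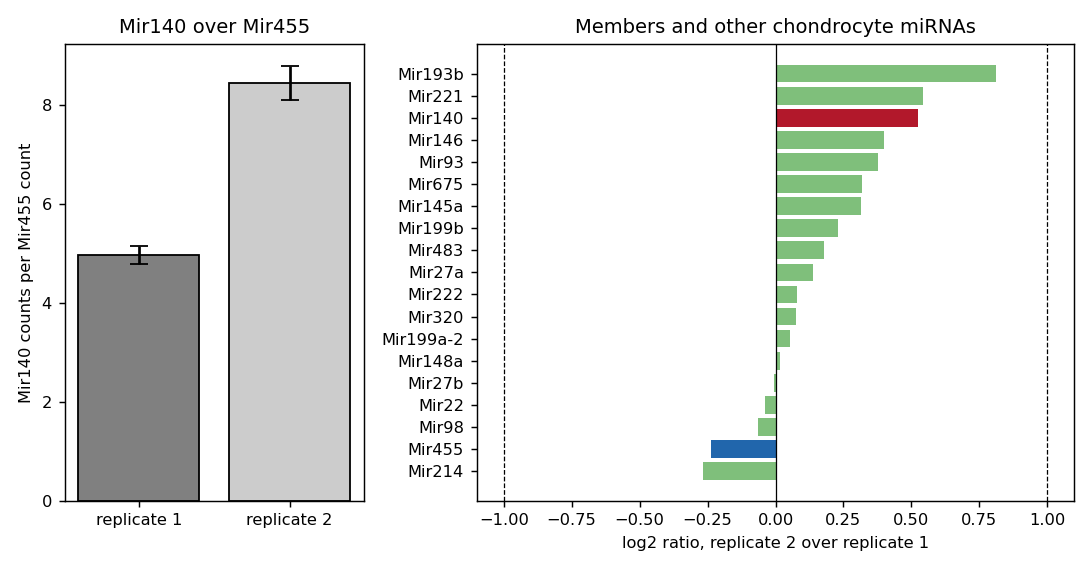
Left, Mir140 counts per Mir455 count in each library (bars from 0, with exact 95% intervals), at 4.97 and 8.45; right, the log2 ratio of replicate 2 over replicate 1 for Mir140 (red), Mir455 (blue) and the 17 detected genes of the chondrocyte list (green), with dashed lines at a 2-fold difference. No bar reaches a dashed line, and Mir140 and Mir455 point to opposite sides.

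The 2 listed miRNA genes inside collagen genes, Mir455 in Col27a1 and Mir711 in Col7a1, differed in level. With only 2 such genes, nothing follows for collagen hosts in general. Mir711 had 0 counts in both libraries, which allows up to 0.463 CPM in replicate 1 and 0.514 CPM in replicate 2. Hosts are mRNAs outside the size range of these libraries, so the levels of Wwp2 and Col27a1 themselves were not measured.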

How the data were processed

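The deposited values were raw counts of reads per miRNA gene, made by the authors on build mm10 with annotation M4, per the file lists deposited with each library; the aligner and counter are not given in the sources used here. Column 2 equalled columns 3 and 4 summed, and column 3 was taken as sense. Sense totals were 6473482 and 5841568 of 15207730 and 12885555 reads. Symbols and hosts came from GENCODE M21 (mm10), matching 1894 of 1973 identifiers. CPM used sense totals. Genes with at least 10 counts in each library were tested with a two-sided exact binomial test at TMM-scaled sizes (edgeR 4.0.16, R 4.3.3). Genes were called at an adjusted p under 0.05 with at least 2-fold; log2 ratios used scaled counts plus 0.5. The quasi-likelihood test had no contrast to fit. The test was checked on simulated counts with counting error alone, so the check does not cover the spread between pools. Folds used ViennaRNA 2.7.2 and exact tests scipy 1.17.1. Named genes were the members, 3 neighbours on each side by mean CPM, the 6 highest and any called of the chondrocyte list, collagen-hosted and same-seed genes and cell type markers; others were named after their values were seen. Members and lists were chosen with earlier results of these data known. Alternatives were DESeq2 1.42.0 size factors, total-count scaling, other count filters, no minimum fold, both strands, other denominators and leaving out each replicate.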

Additional observations from a re-analysis of the deposited data

How the results depend on the processing

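No paired analysis was possible because the design has a single group. Per 1000000 of all reads in place of sense counts, Mir140 stood at 1402 and Mir455 at 212. Leaving out each replicate in turn gave 2627 to 3717 CPM for Mir140, 440.1 to 528 CPM for Mir455 and a log2 ratio of Mir140 over Mir455 of 2.31 to 3.08. Without a minimum fold, Mir140 (log2 ratio 0.53) and Mir455 (-0.24) both passed, as did 169 genes in place of 12 and 13 of the chondrocyte list in place of 0. With at least 100 counts in each library 5 genes were called: 6 of the 12 were still among the genes tested, and Mir363 went from a log2 ratio of 1.01 to 0.98 under the scaling of that filter. Without a count filter 21 genes were called, 1 of them from the chondrocyte list (Mir199a-1, with 6 and 17 counts). Over all scalings, filters and strand columns tried, the log2 ratio of Mir140 lay between 0.50 and 0.53 and that of Mir455 between -0.26 and -0.24. With 2 libraries, the spread between pools rests on 1 difference per gene.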
